A study of Mus musculus with 2 samples.

Results

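The genes described here are 6 genes of the lymphatic endothelium, Lyve1, Prox1, Flt4, Vegfc, Mmrn1 and Reln, followed in whole mouse lung at E15.5, an embryonic day before birth. Probe sets were taken where the array's annotation assigned them to exactly 1 of these genes, which held for 14 of the 45037 that were not controls. Lyve1, Flt4, Mmrn1 and Reln had 2 probe sets each, and Prox1 and Vegfc had 3 each. The study set lungs of TAZ-deficient embryos against those of wild type littermates, TAZ being the transcriptional coactivator encoded by Wwtr1. In each of the 2 groups total RNA from 4 lung samples was pooled and measured on 1 array, so that no difference below has a replicate check and none could be tested. The sources used here give the day and the genotype of each group, and neither the strain, the sex nor the allele behind the deficiency.

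Lymphatic vessels drain fluid and immune cells from tissues and arise in the embryo mainly from veins. Endothelial cells that switch on the transcription factor PROX1 leave the vein toward a source of the growth factor VEGF-C, which they sense through the receptor VEGFR-3, the product of Flt4. In the developing lung these vessels grow around airways and blood vessels, and lymphatic drainage before birth prepares the lung for its first inflation. LYVE1, a receptor for hyaluronan, multimerin 1 (Mmrn1), a secreted matrix and platelet protein, and reelin (Reln), a large secreted glycoprotein, are common markers of lymphatic endothelium. None belongs to that cell type alone. LYVE1 is also carried by some tissue macrophages, multimerin 1 by platelets and their precursors, PROX1 by heart muscle, liver and some neurons, and reelin by neurons.

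The targeted gene was read first, because it checks the labels. All 3 probe sets of Wwtr1 read between 176.9 and 791.2 signal units in the wild type pool and between 3.9 and 11.3 in the TAZ-deficient pool, below the floor of 15.2 units that was set at the median signal of all probe sets. Medians were 15.2 and 15.1 units on the wild type and TAZ-deficient arrays, and log2 signals of the 21527 probe sets above the floor on both arrays correlated with r of 0.99 across probe sets, which are not independent replicates. The lung markers were present, with Sftpc, the surfactant protein C gene, at 4142.5 and 4121.5 units and the epithelial adhesion gene Epcam at 1287.4 and 1335.8.

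Of the 14 lymphatic probe sets, 8 were above the floor on both arrays and 1 more on the TAZ-deficient array alone, and they covered 5 of the 6 genes. The defining transcription factor of the lineage, Prox1, was not among them. The signals of Lyve1, Flt4, Vegfc and Mmrn1 were close to one another on the 2 arrays. At the 8 probe sets above the floor on both, log2 ratios (TAZ-deficient divided by wild type) ran from -0.30 to 0.21 with a median of 0.07. Of the 8, 7 were within 1.2-fold, as were 80.3% of the 21527 probe sets above the floor on both arrays, whose median log2 ratio was -0.01. No member probe set reached 1.5-fold, the difference used here to call a probe set or gene. Of all 23423 probe sets above the floor on either array 3.58% were called, 1.73% as higher and 1.85% as lower in TAZ-deficient lung. Among the 12032 genes above the floor the share was 2.73%, 1.26% higher and 1.46% lower. A count of 0 among 9 member probe sets is near those shares and sets the members apart from nothing else on the arrays. In whole lung, fewer cells of a type cannot be told apart from less RNA per cell, and signals of different probe sets cannot be set against each other as levels.

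**Figure D1:**
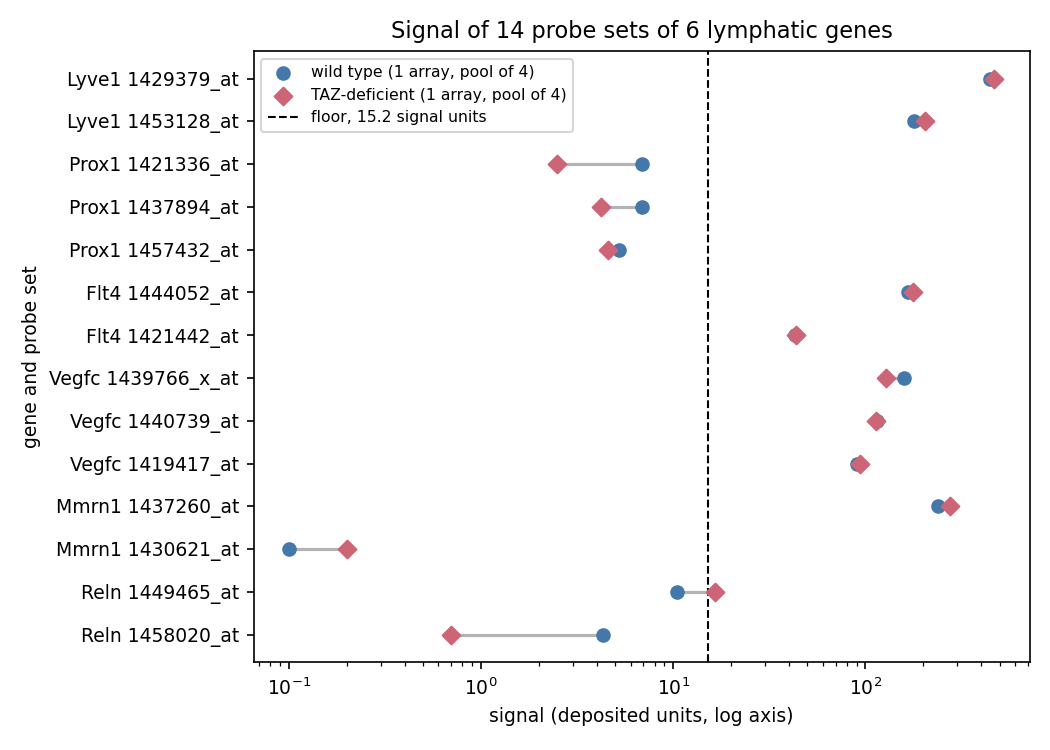
Signal of each lymphatic probe set on the wild type array (circles) and the TAZ-deficient array (diamonds), on a log axis in deposited signal units, with the floor of 15.2 as a dashed line. Each symbol is 1 array of pooled RNA, without error bars. For Lyve1, Flt4, Vegfc and 1 probe set of Mmrn1 both symbols lie right of the floor and nearly coincide, while all 3 probe sets of Prox1 lie left of it.

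Among the 3 members with 2 or more probe sets above the floor on both arrays, the sets of the ligand differed most from one another. Vegfc had 3 such sets, and Lyve1 and Flt4 had 2 each. Vegfc encodes VEGF-C, the growth factor that draws lymphatic endothelial cells out of the veins. Probe set 1419417_at read 90.4 units in the wild type pool and 94.1 in the TAZ-deficient pool, 1.04-fold higher, and 1440739_at read 114.4 and 113.3, 1.01-fold lower. The third, 1439766_x_at, read 158.8 and 128.6, a log2 ratio of -0.30 or 1.23-fold lower. Its suffix marks a set in which some probes can bind other transcripts, and whether they did was not tested. The log2 ratio of this set was 0.29 below that of 1440739_at and 0.36 below that of 1419417_at. In 5201 genes 2 or more probe sets were above the floor on both arrays. The ratios of their 2 brightest sets lay a median of 0.14 log2 units apart. In 21.4% of these genes they lay at least as far apart as the 2 brightest Vegfc sets, at 0.29. In 14.5% they lay at least as far apart as the wider Vegfc gap of 0.36. That share is no like comparison, since 0.36 is the widest Vegfc gap and not that of its 2 brightest sets. The lower Vegfc value thus rested on 1 of 3 probe sets, and both sets with the plain suffix read nearly alike on the 2 arrays. Among 2230 probe sets with a mean log2 signal within 0.25 of 1439766_x_at, 8.39% had a ratio at least as large in size. The direction of 1440739_at depended on the scaling, its log2 ratio being -0.01 as deposited and 0.02 after quantile normalization.

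The receptor read nearly the same in both pools. Flt4 encodes VEGFR-3, the receptor tyrosine kinase for VEGF-C and VEGF-D. Its brighter probe set, 1444052_at, read 166.9 units in the wild type pool and 176.0 in the TAZ-deficient pool, 1.05-fold higher. Its dimmer probe set, 1421442_at, read 43.3 and 43.8, 1.01-fold higher. The 2 log2 ratios, 0.08 and 0.02, lay 0.06 apart, and 76.3% of the 5201 genes had probe sets at least that far apart. A ratio at least as large in size was found at 62.1% of the 2089 probe sets with signals like that of 1444052_at and at 94.7% of the 1892 like 1421442_at. The sign of both Flt4 ratios was the same under median centring, quantile normalization and loess.

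The promoters of ligand and receptor are shown because TAZ reaches DNA through TEAD factors, whose core motif GGAATG was looked for on both strands in the 250 bases before each annotated gene start. The promoter of Mmrn1 is added as that of the member with the highest ratio above the floor. The sequences are from RefSeq on GRCm38.p6, and 5 of the 6 members matched, with 6 windows in all. They run 5′ to 3′ on the gene's strand, and capitals mark a match to the SOX core AACAAT, the one match found among the 3 motifs.
Vegfc, chr8:54077282-54077531, plus strand: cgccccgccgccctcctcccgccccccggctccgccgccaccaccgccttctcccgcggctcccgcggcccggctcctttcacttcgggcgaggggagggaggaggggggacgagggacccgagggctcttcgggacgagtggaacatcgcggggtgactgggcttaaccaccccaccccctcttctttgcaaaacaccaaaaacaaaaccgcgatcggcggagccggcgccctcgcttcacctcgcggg
Flt4, chr11:49609429-49609678, plus strand: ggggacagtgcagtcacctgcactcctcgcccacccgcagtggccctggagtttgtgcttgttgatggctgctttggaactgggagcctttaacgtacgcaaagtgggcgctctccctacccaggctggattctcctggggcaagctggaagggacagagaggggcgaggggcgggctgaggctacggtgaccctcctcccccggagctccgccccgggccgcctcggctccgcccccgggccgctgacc
Mmrn1, chr6:60944067-60944316, plus strand: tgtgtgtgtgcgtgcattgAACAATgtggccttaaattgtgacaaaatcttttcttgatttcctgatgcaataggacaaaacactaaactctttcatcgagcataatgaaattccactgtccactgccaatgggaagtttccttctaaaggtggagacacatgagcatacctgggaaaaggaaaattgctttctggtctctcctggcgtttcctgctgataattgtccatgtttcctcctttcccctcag

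No GGAATG or its reverse complement CATTCC was found in the 6 windows, which also cover Prox1 (2 starts) and Reln. Over all 32851 windows of that length 12.6% held it. AACAAT, or ATTGTT on the other strand, was found once, in the window of Mmrn1, at position -231 relative to the gene start, and 9.42% of all windows held it. AGATAA, or TTATCT, the only form of the GATA motif looked for, was found in none of the 6, and 9.99% of all windows held it. Other forms of that motif were not searched. The GC content of the windows was 71.6% for Vegfc, 68.4% for Flt4 and 42.4% for Mmrn1, against a median of 52.4%. These are matches of letters in a short window and show nothing about binding.

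Both probe sets of Lyve1 read higher in TAZ-deficient lung, by small amounts. Probe set 1429379_at read 446.3 units in the wild type pool and 469.8 in the TAZ-deficient pool, 1.05-fold higher, and 1453128_at read 178.7 and 204.4, 1.14-fold higher. Their log2 ratios, 0.07 and 0.19, lay 0.12 apart, less than the median distance between probe sets of one gene. Ratios at least as large in size were found at 52.9% of the 1253 probe sets with signals like that of 1429379_at and at 22.3% of the 2015 like 1453128_at. The annotation gives the 2 probe sets the same source transcript, so that they are not independent readings.

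Mmrn1 had the highest ratio of the members above the floor on both arrays, and it rested on 1 probe set. Probe set 1437260_at read 238.7 units in the wild type pool and 276.5 in the TAZ-deficient pool, 1.16-fold higher, a log2 ratio of 0.21. Of 1835 probe sets of like signal, 16.6% had a ratio at least as large in size. The other probe set of Mmrn1, 1430621_at, read 0.1 and 0.2 units, near the bottom of the scale on both arrays, and so gave no second reading.

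**Figure D2:**
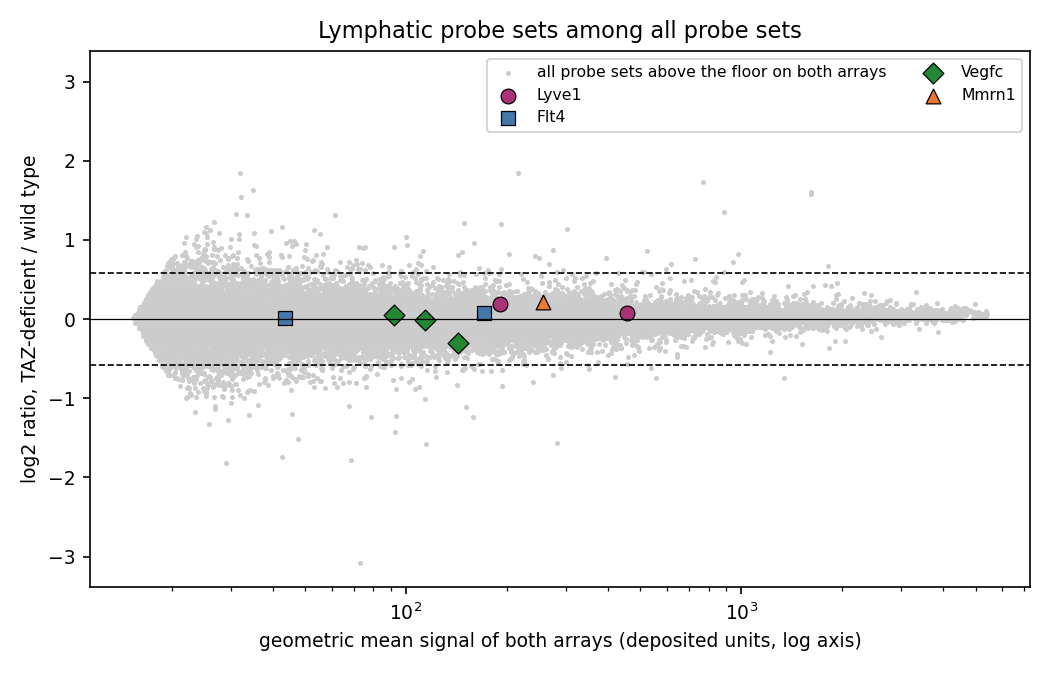
Log2 ratio (TAZ-deficient divided by wild type) against the geometric mean signal of both arrays (log axis) for the 21527 probe sets above the floor on both arrays (grey) and the 8 lymphatic ones among them (coloured by gene). Dashed lines mark 1.5-fold. All 8 lie between the dashed lines, at log2 ratios from -0.30 for Vegfc 1439766_x_at to 0.21 for Mmrn1.

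Prox1 was below the floor at all 3 of its probe sets on both arrays. Prox1 encodes the homeobox factor that specifies and maintains lymphatic identity. In wild type lung 1421336_at and 1437894_at each read 6.9 units and 1457432_at read 5.2. In TAZ-deficient lung the same sets read 2.5, 4.2 and 4.6. All 3 readings were lower in the TAZ-deficient pool, but no fold is given because both sides lay below the floor. For comparison, 43 probe sets of olfactory receptor genes, chosen as a reference after the values were seen, had medians of 3.3 and 2.2 units on the 2 arrays and upper quartiles of 7.6 and 6.95, and none was above the floor. Each Prox1 reading was below that upper quartile on its array. The median and upper quartile of the olfactory receptor sets were, like the Prox1 readings, lower in the TAZ-deficient pool. Prox1os, the transcript annotated opposite Prox1, read 8.2 and 7.4.

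Reln, whose secreted product is made by lymphatic endothelium of larger vessels and by neurons, was at or below the floor. Probe set 1449465_at read 10.5 units in the wild type pool and 16.6 in the TAZ-deficient pool, at least 1.09-fold higher. It passed the floor only through the pool in which it was higher, so that its direction was set by that filter. Probe set 1458020_at read 4.3 and 0.7, in the opposite order and below the floor on both. The 2 probe sets thus gave no common direction. Around the floor, the nearest member readings were the 16.6 and 10.5 units of 1449465_at itself, then 43.3 of Flt4 on the upper side and 6.9 of Prox1 on the lower.

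The members were next set beside other genes of the same pathway. The list of VEGF-C processing factors, ligands and receptors had 14 genes above the floor, 2 of them at least 1.5-fold higher, none lower, and a median log2 ratio of 0.09. The median over all measured genes was -0.01. Ccbe1, a secreted protein needed to activate VEGF-C, read 49.6 and 76.0 at the brightest of its probe sets, 1.53-fold higher, but its next probe set read 25.4 and 21.7. Pgf, the placental growth factor, read 21.2 and 32.6, 1.54-fold higher, close to the floor and on 1 probe set. Adamts3, the protease that cleaves VEGF-C with CCBE1, read 33.3 and 44.3, and is given as an example chosen after its value was seen. These values are dim. With the floor at the 75th percentile, 106.3 units, 9 genes of the list were left, 0 of them 1.5-fold different, and their median was below 0. Ccbe1 and Pgf lay below that floor on both arrays and could not be called there. With the median over each gene's probe sets, 1 gene of the list was 1.5-fold different.

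The second ligand of VEGFR-3 was the lowest of that list by its brightest probe set. Vegfd, which encodes VEGF-D, read 413.1 units in the wild type pool and 309.6 in the TAZ-deficient pool, 1.33-fold lower. Its second probe set read 237.2 and 226.0, and its remaining probe set, also above the floor, was not lower. Kdr, which encodes VEGFR-2 and also binds processed VEGF-C, read 195.9 and 229.2, 1.17-fold higher on 1 probe set. Nrp1, a co-receptor for VEGF-A, read 579.6 and 605.8. Nrp2, the co-receptor for VEGF-C on lymphatic vessels and an example chosen after its value was seen, read 135.2 and 120.8, with 44.5 and 45.2 at its second probe set. Vegfa read 149.1 and 162.0, with 77.8 and 66.8 at its second probe set. Vegfb read 185.9 and 204.8, and Ptpn14, a phosphatase that dampens VEGFR-3 signalling, 209.3 and 208.3. The integrin genes Itga9, needed for lymphatic valves, and Itgb1, its partner subunit, read 143.5 and 129.9, and 1063.3 and 994.5. Apart from Ccbe1 and Pgf none of these reached 1.5-fold.

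Of 10 measured genes of lymphatic specification and identity, none was 1.5-fold different, 3 ratios were above 0 and 7 below, and the median was -0.06. Sox18, which switches on Prox1 in venous endothelium, read 452.7 and 421.5 units. Nr2f2, the venous identity factor COUP-TFII that acts with SOX18 on Prox1, read 311.3 and 296.2. Hhex, a homeobox factor of early endothelium, read 225.5 and 238.1. Pdpn, which encodes the lymphatic surface protein podoplanin and is also strong in lung type 1 epithelium and mesothelium, read 383.3 and 381.6. Prox1 was below the floor in lungs in which Sox18, Nr2f2 and Hhex had signals above the floor on both arrays. In whole lung these signals cannot be assigned to lymphatic cells. Fxyd6 read 98.4 and 95.3 and Tbx1 84.0 and 73.5.

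None of the 16 measured genes of lymphatic remodelling and valves was 1.5-fold different, and their median was -0.07. The brightest were the connexin gene Gja1 (1149.4 and 1239.5), Ramp2, part of the adrenomedullin receptor (813.3 and 813.6), and Efnb2, the ligand ephrin B2 of valve-forming endothelium (580.3 and 651.9). Calcrl, the partner of RAMP2, read 299.0 and 331.6, Tek, the angiopoietin receptor TIE2, 271.0 and 271.0, Tie1 233.6 and 202.7, Ephb4 261.7 and 243.1 and Cdh5 352.3 and 342.3. Foxc2, the valve regulator, was at the floor with 16.3 and 14.1. Angpt2, a TIE2 ligand required for lymphatic remodelling, had the lowest ratio of the list at 32.4 and 23.0, 1.41-fold lower. Foxc2 and Angpt2 are examples chosen after their values were seen.

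**Figure D3:**
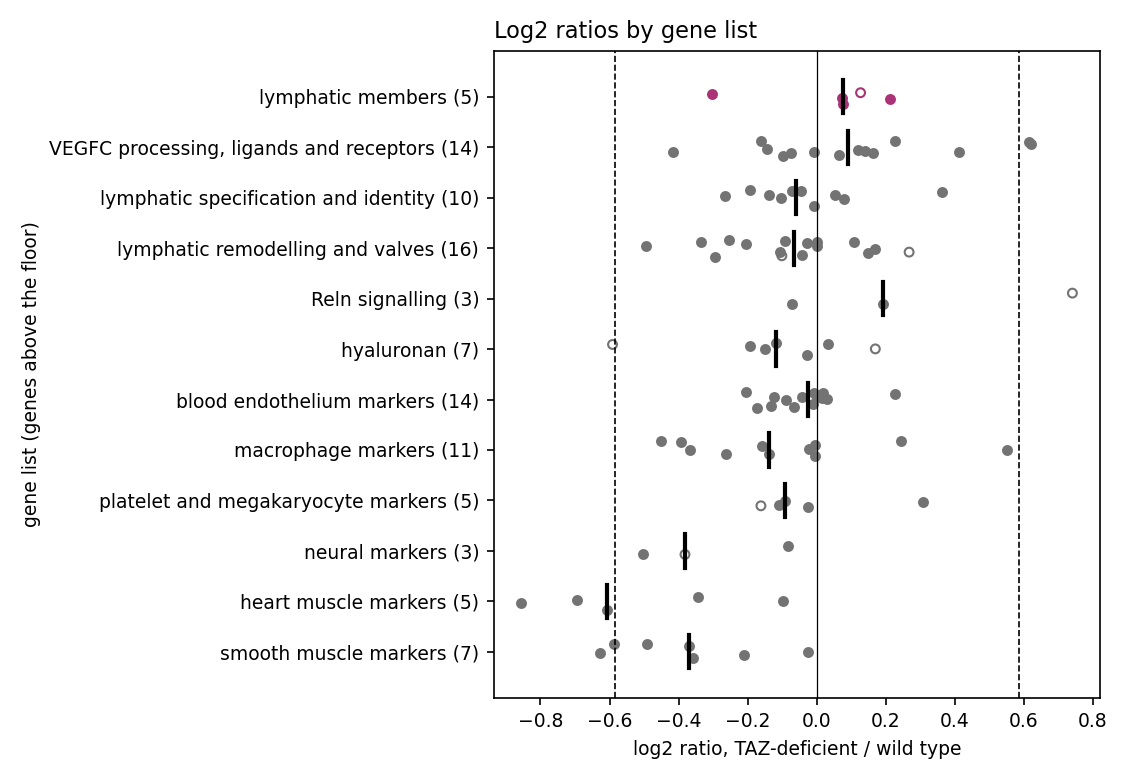
Log2 ratio (TAZ-deficient divided by wild type) for each gene above the floor, by gene list, each gene by its brightest probe set, with the number of genes in parentheses. Vertical bars are list medians, dashed lines mark 1.5-fold and open symbols are lower bounds in size. The 5 lymphatic members lie inside the dashed lines with a median of 0.08, and the heart muscle and smooth muscle lists lie below 0 with medians of -0.61 and -0.37.

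Markers of other cells that share these transcripts were read beside the members. Macrophage markers, relevant to Lyve1, had 9 of 11 measured genes below 0 and a median of -0.14, with a summed signal of 1216.7 units in the wild type pool and 1108.8 in the TAZ-deficient pool. Csf1r, the receptor of the macrophage growth factor, read 280.0 and 279.0. Its second probe set read 85.2 and 61.2, and its remaining one, also above the floor, was not lower. F13a1 read 206.8 and 205.9, and Cd163 and Timd4 were below the floor. The 2 markers with ratios above 0 were Folr2 (18.9 and 27.7) and Ptprc (35.6 and 42.2), both dim. Among the 9 below 0, C1qa read 156.4 and 121.4, C1qb 151.3 and 110.7 and C1qc 125.3 and 95.5. Folr2, Ptprc and these C1q genes are named after their values were seen. Platelet and megakaryocyte markers, relevant to Mmrn1, had 4 of 5 genes below 0 and a median of -0.09, with sums of 427.3 and 417.5. Pf4, platelet factor 4, read 245.0 and 229.8. The integrin gene Itga2b, the only measured gene of this list above 0, read 61.1 and 75.7. Blood endothelial markers, which share Flt4 in part, had 9 of 14 genes below 0, 4 above and a median of -0.03, with sums of 7476 and 7305.3. Aplnr read 2905.5 and 2944.2 and Esam 685.9 and 655.4. A summed signal is weighted to the brightest probe sets and is not a level of a cell type. The part of these cells in the lymphatic values was not tested.

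Heart muscle markers had 5 of 5 measured genes below 0 and 3 at least 1.5-fold lower, Myl7 (83.6 and 46.2), Myh7 (24.9 and 15.4) and Tnnt2 (30.6 and 20.1), with sums of 748.4 and 570.4 and Myh6, Tnni3 and Nppa below the floor. Most of the summed signal came from Actc1 (551.9 and 435.1). Myl7, Myh7 and Tnnt2 lay below a floor at the 75th percentile, 106.3 units, on both arrays, and so could not be called there. The 3 Prox1 probe sets were below the floor on both arrays, and the part of heart muscle in their readings was not tested. Liver markers were below the floor apart from Alb, which lay at it (15.3 and 10.7), and Serpina1a was not matched to a probe set. Of the neural markers, relevant to Reln, 3 were measured, all below 0, with Gap43 at 51.4 and 48.5 and Stmn2 at 46.1 and 32.5 (its second probe set 23.6 and 30.5), and Tubb3, Elavl4 and Nefl were below the floor. Smooth muscle markers had 7 of 7 below 0 and a median of -0.37, with Synpo2 (97.2 and 62.9) and Cnn1 (118.6 and 79.0) at least 1.5-fold lower and sums of 4056.8 and 3721.6. After median centring, quantile normalization or loess 1 of these was called. Most of the smooth muscle sums came from Acta2 (2749.2 and 2701.5). The part of smooth muscle in the lower signal of Vegfc 1439766_x_at was not tested.

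At probe sets above the floor on both arrays the ratios moved little with the processing, while those of Prox1 and Reln turned on the floor. With the scaling as deposited or after median centring 6 of the 8 probe sets above the floor on both arrays had positive ratios, and 7 of 8 did after quantile normalization or loess, the one that turned being Vegfc 1440739_at. Medians over the 8 were 0.07, 0.07, 0.08 and 0.08 in that order. With the floor lowered to the 25th percentile, 4.3 units, Prox1 was called lower by its brightest probe set, as a bound set by that floor. Prox1 1457432_at, above that floor on both arrays, did not reach 1.5-fold. Reln was called higher, and 12.3% of all measured genes were then past 1.5-fold.

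**Figure D4:**
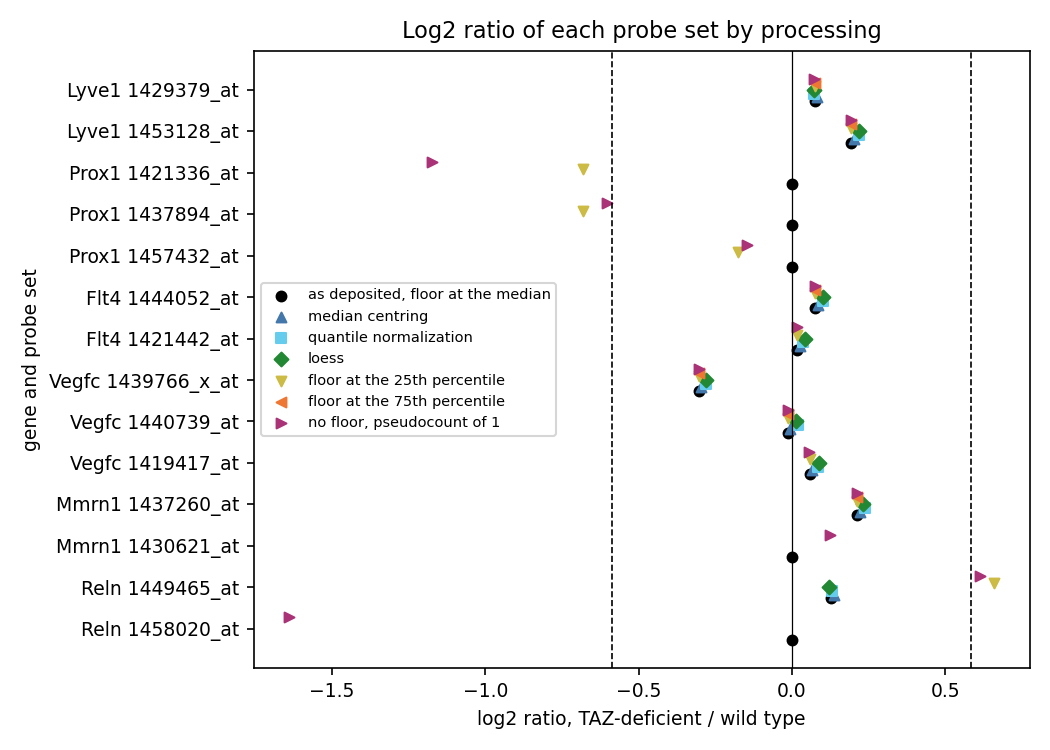
Log2 ratio (TAZ-deficient divided by wild type) for each lymphatic probe set as deposited and under 6 other settings, with 1.5-fold as dashed lines. A probe set below the floor on both arrays is drawn at 0 for the deposited setting and has no symbol under settings that leave it below the floor. Lyve1, Flt4, Vegfc and Mmrn1 1437260_at keep their place, and the wide spread is confined to probe sets of Prox1 and Reln, with Mmrn1 1430621_at moving to 0.13 without a floor.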

How the data were processed

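Total RNA of 4 lung samples per group was pooled, labelled with biotin after priming on the poly(A) tail and hybridised to an Affymetrix mouse array, 1 per group, per the labels' protocols. Signals came from GCOS and MAS5 (versions not stated), per the submitters' processing notes. The authors deposited linear intensity values, 1 per probe set and array, which are never negative. Their mean after removing 2% at each end was 100.001 on both arrays. No detection call was used, and no source used here gives the position or genome build of the probes.

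Gene names came from the platform annotation and were updated by Entrez identifier. Values below the median of all non-control signals (15.2) were set to it before log2 ratios were taken, and where 1 side was below it the fold is written as "at least". A gene was represented by its brightest probe set. With 1 array per group there is no test, and the number of arrays limits the precision. The members and the 16 gene lists were chosen with earlier results of these data known. The text names all members, Wwtr1, genes of each other list at least 1.5-fold different or else the 2 brightest, and up to 8 of the brightest genes of the 3 lymphatic pathway lists, plus markers of other cells that lay below the floor and examples said to be chosen after their values were seen. Alternatives were 2 other floors, none with a pseudocount of 1, median centring, quantile normalization, loess (span 0.3), the median over probe sets, and no probe sets with a shared suffix. The calculations were tested on simulated data and run in Python 3.11.15 with pandas 2.3.3 and statsmodels 0.14.6.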

Additional observations from a re-analysis of the deposited data

How the results depend on the processing

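No paired analysis was possible because each group is 1 pool on 1 array and the labels number no replicates, and no array could be left out. The count of member genes at least 1.5-fold different was 0 under the deposited setting and the other settings except 2, being 2 (Prox1 and Reln) at a floor of 4.3 units, the 25th percentile, and 2 without a floor. At these settings 12.3% and 18.3% of all measured genes were called. At the floor of 4.3 units the log2 ratio was -0.68 for Prox1 1421336_at, -0.68 for Prox1 1437894_at and 0.66 for Reln 1449465_at. Both values of -0.68 are lower bounds in size, set by that floor, since the TAZ-deficient readings of 2.5 and 4.2 lie below it. Prox1 1457432_at, above that floor on both arrays, was at -0.18 and did not reach 1.5-fold. Without a floor, with a pseudocount of 1, these probe sets were at -1.17, -0.60, 0.61 and -0.15 in that order. Reln 1458020_at was then at -1.64. Apart from the 16.6 units of Reln 1449465_at in the TAZ-deficient pool these signals lie below 15.2 units, and what the ratios show there is limited by the signal over background. The median over member probe sets above the floor on either array was 0.07 and lay between 0.04 and 0.13 under the 8 alternatives. The ratio of Vegfc by its brightest probe set, -0.30, was -0.01 without shared probe sets and with the median over probe sets. The probe sets of Lyve1, Flt4 and Mmrn1 1437260_at kept the sign of their ratio under every alternative that measured them.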

Other observations

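Some genes outside the members gave the same direction at every probe set above the floor, and were chosen after their values were seen. Other genes, such as Nrp1, did so as well. Probe sets of a gene read the same 2 pools, so their agreement is no replicate check. Gata2, a transcription factor of lymphatic valves and of blood progenitors, read 64.5 units in the wild type pool and 53.7 in the TAZ-deficient pool at its brighter probe set and 43.3 and 29.2 at the other. Nfatc1, a valve regulator, read 106.3 and 84.2, and its 2 other probe sets above the floor were also lower. Maf, a transcription factor of lymphatic endothelium and macrophages, read 539.4 and 693.3, 1.29-fold higher, and its 4 other probe sets above the floor were higher as well, the next brightest reading 197.8 and 210.2. None of these reached 1.5-fold at the brightest probe set.

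The receptors of reelin and the genes around hyaluronan, the ligand of LYVE1, were also read, with Vldlr, Lrp8 and Cd44 chosen after their values were seen. Vldlr, a reelin receptor, read 251.8 and 287.8, and all 5 of its other probe sets above the floor had ratios above 0. Dab1, the adaptor of reelin signalling, read 9.7 and 25.4, at least 1.67-fold higher, with no other of its 5 probe sets above the floor, and Lrp8 was below the floor. The Dab1 probe set passed the floor only through the TAZ-deficient pool, so that its direction was set by that filter. It has a shared suffix, and without such sets no gene of this list was called. Of 7 measured hyaluronan genes Has3, a hyaluronan synthase, read 22.9 and 13.2, at least 1.51-fold lower, and the list had a median of -0.12, while the receptor Cd44 read 607.9 and 560.2. Has3 passed the floor only through the wild type pool, so that its direction was set by that filter. Its call was lost after median centring. The housekeeping genes Rplp0 and Actb read 4295.1 and 4553.3, and 3600.0 and 3599.5.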
